A study of Arabidopsis thaliana with 36 samples.

Results

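Root hair formation was followed through 9 loci of Arabidopsis thaliana, taken by locus from a count table of 24532 loci. They are the bHLH transcription factor genes RHD6 (AT1G66470), RSL2 (AT4G33880) and RSL4 (AT1G27740), the NADPH oxidase gene RHD2 (AT5G51060), and the cell wall genes EXPA7 (AT1G12560), EXPA18 (AT1G62980), PRP3 (AT3G62680), LRX1 (AT1G12040) and COBL9 (AT5G49270). They were taken by name, but with earlier results of these data known, and 9 of 9 passed the filter on low counts. RNA sequencing was run on roots of 7-day-old seedlings in 36 libraries, 3 for each of 12 groups, and each library pooled around 15 roots. The genotypes were IMA1ox, in which a fusion of mCitrine with the Fe-uptake peptide IMA1 was driven by the UBQ10 promoter, fls2, a mutant of the receptor for bacterial flagellin, and Col-0 wild type (WT). Each genotype was given 4 treatments for 24 h. These were Fe deficiency (50 µM of the Fe chelator FerroZine) with 100 nM flg22, Fe deficiency alone, 75 µM Fe with 100 nM flg22, and 75 µM Fe alone. flg22 is the peptide of flagellin that FLS2 binds. IMA1ox is 1 labelled line and the UBQ10 promoter is active in most cells, so its values belong to that line and to no single cell type.

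Root hairs are outgrowths of single epidermal cells, the trichoblasts, and enlarge the surface that takes up water and poorly mobile nutrients. RHD6 acts early in hair formation and activates RSL4 and RSL2, and RSL4 in turn sets how long the hair grows by activating genes of the growing tip. Those genes include RHD2, which makes the reactive oxygen that sustains tip growth, and genes for wall proteins. EXPA7 and EXPA18 encode expansins that loosen the wall, PRP3 a proline-rich wall protein, LRX1 a leucine-rich repeat extensin, and COBL9 a COBRA-like protein that is anchored to the membrane and needed for orderly wall deposition. The root hair element is a promoter motif that RSL4 binds and that marks many hair-specific genes.

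The 250 bases before the annotated start of each of the 9 genes were read, by locus, from the RefSeq assembly TAIR10.1, and the root hair element was searched on both strands. EXPA7, EXPA18, PRP3 and LRX1 each held 1 match to the full consensus, and RHD6, RSL2, RSL4, RHD2 and COBL9 held none. Of 20350 such windows, 155 (0.762%) held a match. The element marks many hair-specific genes and the 9 were chosen as root hair genes. These counts are therefore a description, and enrichment was not tested. These 4 matches, 16 or 17 bases long, are shown because they mark where the element lay in 4 of the 5 wall genes. Each is written in the direction of the motif, with its core in capitals.
EXPA7: atagtgatccGCACGTa
EXPA18: aacatgaacGCACGTc
PRP3: taagtgtaatGCACGAt
LRX1: aacttggacGCACGTt
The match began 78 bases before the gene start in EXPA7 and 40 bases before it in EXPA18, both on the strand of the gene. In PRP3 and LRX1 it lay on the opposite strand, 167 and 93 bases before the start.

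The core alone, searched on both strands as CACG with G or T before it and A or T after it, is contained in the full motif and was far more common, with 3729 of the 20350 windows (18.3%) holding it. LRX1 and COBL9 held 3 core matches each, EXPA7 and RSL4 held 2, and EXPA18, PRP3 and RHD2 held 1. RHD6 and RSL2 held no core match in this window. The windows of the 5 wall genes follow, 5′ to 3′ on the strand of the gene, with core matches on either strand in capitals.
EXPA7 (chr1:4276255-4276504, plus strand): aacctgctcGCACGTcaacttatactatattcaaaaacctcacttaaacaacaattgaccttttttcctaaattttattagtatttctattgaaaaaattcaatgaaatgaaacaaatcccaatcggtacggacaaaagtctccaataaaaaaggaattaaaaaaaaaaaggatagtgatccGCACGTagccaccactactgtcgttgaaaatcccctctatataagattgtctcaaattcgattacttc
EXPA18 (chr1:23331313-23331562, plus strand): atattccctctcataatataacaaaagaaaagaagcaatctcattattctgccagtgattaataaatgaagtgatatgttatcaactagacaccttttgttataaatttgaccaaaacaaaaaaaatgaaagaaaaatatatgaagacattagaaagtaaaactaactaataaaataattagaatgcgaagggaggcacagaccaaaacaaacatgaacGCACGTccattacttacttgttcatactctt
PRP3 (chr3:23182472-23182721, plus strand): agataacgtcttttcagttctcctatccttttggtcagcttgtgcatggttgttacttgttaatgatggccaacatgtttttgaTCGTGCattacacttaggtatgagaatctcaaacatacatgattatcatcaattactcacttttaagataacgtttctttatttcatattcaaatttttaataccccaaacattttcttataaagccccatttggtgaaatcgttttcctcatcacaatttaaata
LRX1 (chr1:4069742-4069991, plus strand): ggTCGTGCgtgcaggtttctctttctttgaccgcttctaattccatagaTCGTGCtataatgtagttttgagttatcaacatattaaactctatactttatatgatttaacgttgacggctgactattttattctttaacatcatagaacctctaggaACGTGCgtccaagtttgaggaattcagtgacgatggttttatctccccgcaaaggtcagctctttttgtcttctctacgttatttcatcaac
COBL9 (chr5:19974531-19974780, minus strand): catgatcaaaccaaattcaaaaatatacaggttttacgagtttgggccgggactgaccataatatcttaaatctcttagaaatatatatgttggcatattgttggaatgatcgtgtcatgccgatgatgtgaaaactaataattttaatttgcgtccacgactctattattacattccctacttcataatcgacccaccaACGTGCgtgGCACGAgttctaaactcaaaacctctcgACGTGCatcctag
A match describes these letters and does not show that a factor was bound.

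Library totals ran from 28130566 to 40903411 counts. FLS2 ranged from 0 to 0.0863 CPM (counts normalised to the library size) in the fls2 libraries, against 0.783 to 7.35 CPM in WT. The locus AT1G47400, taken here as IMA1, ranged from 306 to 471 CPM in IMA1ox, against 1.97 to 18.7 CPM in WT. Libraries of a group correlated with their own group at a mean r of 0.9855 to 0.9924, except WT -Fe replicate 3 at 0.9848 and IMA1ox -Fe flg22 replicate 1 at 0.982. That library held PRP3 at 142 CPM, against 53.4 and 48.9 CPM in the other libraries of its group. Calls that changed without either library are given beside the result, and for flg22 in Fe-deficient IMA1ox the values without that library follow in a paragraph of their own.

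Most calls among the 9 genes came from IMA1ox. A gene is called changed where edgeR's quasi-likelihood test with Benjamini-Hochberg adjustment over 20354 genes gave an adjusted p under 0.05. flg22 lowered all 9 genes in Fe-deficient IMA1ox, where 21.5% of all genes tested were called lower and 24% higher, and 5 of 9 in Fe-sufficient IMA1ox (20.4% of all genes lower and 23% higher). In WT, flg22 lowered 4 and raised 1 of the 9 with Fe (19.4% of all genes lower and 20.8% higher), and lowered 3 and raised 1 without Fe (16.8% lower and 18.2% higher). In fls2, flg22 changed 0 of the 9 genes with Fe and 0 without Fe by edgeR, where 0% of all genes were called, and 0 of 9 had an unadjusted p under 0.05 in either. DESeq2 called 0 of the 9 in both.

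Fe deficiency raised 5 of the 9 genes in IMA1ox (1.9% of all genes higher and 2.39% lower), lowered 1, RSL2, in WT (2.85% of all genes lower and 3.12% higher), and changed none of them in fls2 by edgeR (1.15% higher and 0.968% lower), where 1 had an unadjusted p under 0.05 and DESeq2 called 0. In the presence of flg22, Fe deficiency changed 0 of the 9 by edgeR in IMA1ox (0.884% higher and 1.38% lower), fls2 (2.08% and 3.22%) and WT (0.118% and 0.0197%). There, 0, 1 and 0 of the 9 had an unadjusted p under 0.05 in IMA1ox, fls2 and WT, and DESeq2 called 0 in each. Between genotypes, IMA1ox was lower than WT in 5 of the 9 genes with Fe (9.63% of all genes lower and 7.09% higher), in 7 with Fe and flg22 (7.44% and 7.05%) and in 4 without Fe but with flg22 (5.88% and 4.44%). Without Fe or flg22, IMA1ox was higher than WT in 1 of the 9, RSL2 (4.15% of all genes higher and 7.76% lower). These comparisons share groups of libraries, so their counts are not separate pieces of evidence.

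**Figure D1:**
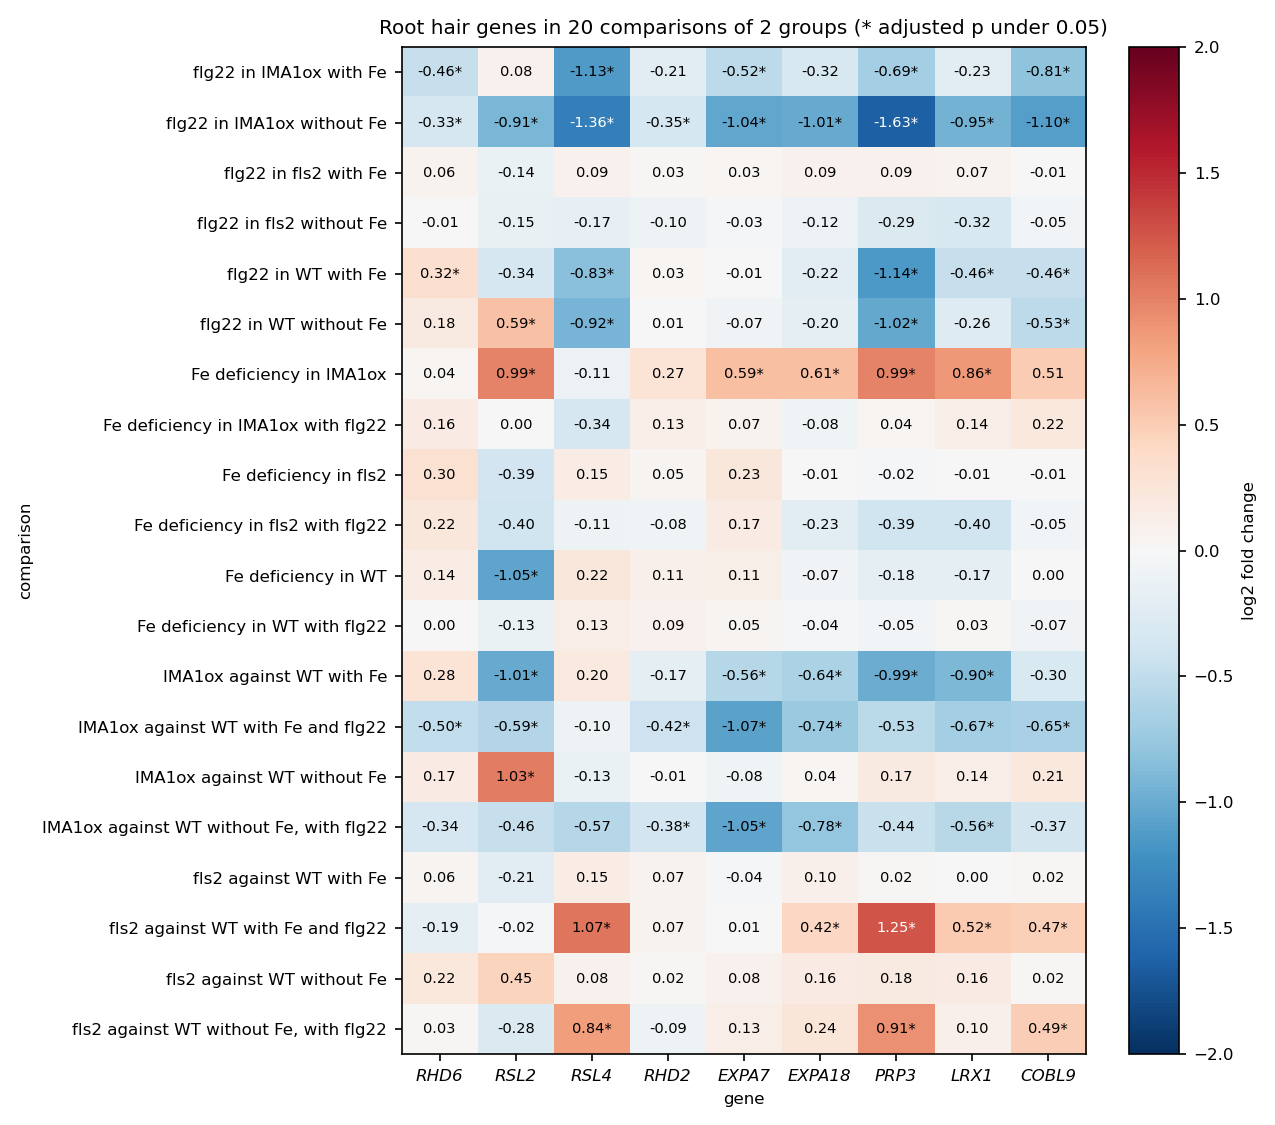
The log2 fold change of each of the 9 genes (columns) in each of 20 comparisons between groups (rows), with an asterisk where the adjusted p was under 0.05. All 9 genes were lower with flg22 in Fe-deficient IMA1ox, and the fls2 rows for flg22 hold no asterisk.

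Among the 3 regulators, RSL4 fell with flg22 in both genotypes that carry FLS2 and at both Fe levels. It had 5.89, 3.97 and 6.84 CPM in flg22-treated WT with Fe, against 11.7, 8.34 and 9.63 CPM in untreated WT. The groups did not overlap, and the log2 fold change was -0.83 ± 0.25 (SE, adjusted p = 0.00891). Without Fe, flg22-treated WT had 6.70, 4.41 and 7.12 CPM and untreated WT had 8.18, 9.64 and 16.9 CPM, a log2 fold change of -0.92 ± 0.24 (adjusted p = 0.00427). The call was lost with Fe when WT +Fe replicate 1 or WT +Fe flg22 replicate 2 was left out (adjusted p from 0.0528 to 0.0688), and without Fe when WT -Fe replicate 3, the library at 16.9 CPM, was left out (log2 fold change -0.55, adjusted p = 0.0657). Without Fe it was also lost in a fit of the compared groups alone (-0.93, adjusted p = 0.0833). In these bulk samples, fewer trichoblasts and less RNA per trichoblast cannot be told apart.

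By group mean, RSL4 was lowest in IMA1ox with flg22, at 4.11 CPM without Fe and 5.19 CPM with Fe. These libraries overlapped those of flg22-treated WT, with means of 6.08 and 5.57 CPM. At neither Fe level did edgeR on all 36 libraries call RSL4 between IMA1ox and WT with flg22. Fe-deficient IMA1ox had 5.84, 3.30 and 3.18 CPM with flg22 and 12, 11.4 and 8.23 CPM without it, a log2 fold change of -1.36 ± 0.25 (adjusted p = 8.83e-05). Fe-sufficient IMA1ox had 5.43, 4.89 and 5.26 CPM with flg22 and 11.7, 9.64 and 12.8 CPM without it (-1.13 ± 0.25, adjusted p = 0.000655). Every flg22-treated library lay below every untreated one in both comparisons. The effect of flg22 on RSL4 did not differ between IMA1ox and WT past the threshold, with a difference of -0.44 without Fe (95% interval -1.12 to 0.25) and -0.30 with Fe (-0.98 to 0.39). Without both libraries that stood apart, the difference in Fe-deficient roots was -1.15 (adjusted p = 0.0312).

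In fls2, RSL4 held between 9.45 and 13.2 CPM in all 12 libraries, and the log2 fold change with flg22 was 0.09 ± 0.23 with Fe and -0.17 ± 0.23 without Fe. With flg22, fls2 was higher than WT by 1.07 ± 0.25 with Fe (adjusted p = 0.000775) and by 0.84 ± 0.24 without Fe (adjusted p = 0.00547). The difference between the flg22 effects in fls2 and WT was 0.92 ± 0.34 with Fe, with an adjusted p of 0.0538. It passed the threshold when WT +Fe flg22 replicate 3 or fls2 +Fe flg22 replicate 2 was left out (adjusted p from 0.0288 to 0.0442), and with DESeq2 (0.0289), the replicate number as a block (0.0286), at least 5 CPM in 3 libraries (0.0465) and the compared groups alone (0.0323). Without Fe the difference was 0.76 ± 0.33 (adjusted p = 0.106), or 0.97 (adjusted p = 0.0395) without WT -Fe replicate 1. Fe deficiency by itself moved RSL4 by -0.11 in IMA1ox (95% interval -0.56 to 0.34), by 0.15 in fls2 (-0.30 to 0.60) and by 0.22 in WT (-0.24 to 0.68), none of them past the threshold.

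RSL2, which acts beside RSL4 in later hair growth, followed Fe supply in opposite directions in IMA1ox and WT. In IMA1ox it had 11, 10.4 and 10.8 CPM under Fe deficiency and 5.46, 6.16 and 4.63 CPM with Fe. In WT it had 4.40, 4.58 and 6.85 CPM under Fe deficiency and 12.9, 8.85 and 10.9 CPM with Fe. Neither pair of groups overlapped, and the level of Fe-deficient IMA1ox lay within the range of Fe-sufficient WT. RSL2 rose with Fe deficiency in IMA1ox (log2 fold change 0.99 ± 0.20, adjusted p = 0.00237) and fell in WT (-1.05 ± 0.20, adjusted p = 0.00104). The difference between these effects was 2.04 ± 0.28 (adjusted p = 4.76e-05), in a comparison where 1.71% of all genes were called higher and 3 of the 9 genes were.

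Set against WT, RSL2 in IMA1ox was lower with Fe (-1.01 ± 0.20, adjusted p = 0.000604) and higher without Fe (1.03 ± 0.20, adjusted p = 0.000888). These values use the same libraries as the Fe effects. In fls2 it had 7.40, 7.83 and 6.36 CPM under Fe deficiency and 8.67, 10.3 and 9.31 CPM with Fe. The fls2 groups did not overlap, but the log2 fold change of -0.39 ± 0.19 had an adjusted p of 0.374. The Fe effect in fls2 minus that in WT was 0.66, with a 95% interval from 0.12 to 1.21 and an adjusted p of 1, where 0% of all genes were called.

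flg22 also moved RSL2 in opposite directions in Fe-deficient roots, set against the same untreated Fe-deficient libraries as the Fe effects used. In Fe-deficient IMA1ox it had 5.05, 6.07 and 6.06 CPM with flg22, below the 10.4 to 11 CPM of untreated libraries (-0.91 ± 0.20, adjusted p = 0.000429). In Fe-deficient WT it had 9.24, 6.56 and 7.91 CPM with flg22, against 4.40 to 6.85 CPM without it, and 1 treated library lay inside the untreated range (0.59 ± 0.20, adjusted p = 0.0245). The effect in IMA1ox minus that in WT was -1.49 ± 0.28 (adjusted p = 0.00199), in a comparison where 0.801% of all genes and 3 of the 9 were called lower. The call of the rise in WT was lost in 4 of 6 fits that left out 1 library, WT -Fe replicate 1 or 2 or WT -Fe flg22 replicate 1 or 3 (adjusted p from 0.061 to 0.138), and in the compared groups alone (0.0563). The difference between IMA1ox and WT held in each of 12 such fits. The effect in Fe-deficient fls2 minus that in WT was -0.73 ± 0.28 (adjusted p = 0.0619), and passed without WT -Fe replicate 3 or WT -Fe flg22 replicate 2 (-0.96 to -0.84, adjusted p from 0.0165 to 0.048), with DESeq2 (0.048) and in the compared groups alone (0.0393).

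With Fe, RSL2 did not pass the threshold for flg22 in any genotype, at 0.08 ± 0.21 in IMA1ox, -0.14 ± 0.19 in fls2 and -0.34 ± 0.19 in WT. In the fls2 +Fe flg22 group RSL2 had 12, 7.94 and 5.76 CPM, a wider spread than in the other groups. With Fe and flg22, IMA1ox was lower than WT by 0.59 on the log2 scale (adjusted p = 0.0463), a call lost in 5 of 6 fits that left out 1 library (each except IMA1ox +Fe flg22 replicate 1, adjusted p from 0.0634 to 0.257), with no filter on low counts (0.0541) and with library totals in place of TMM factors (0.0645).

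**Figure D2:**
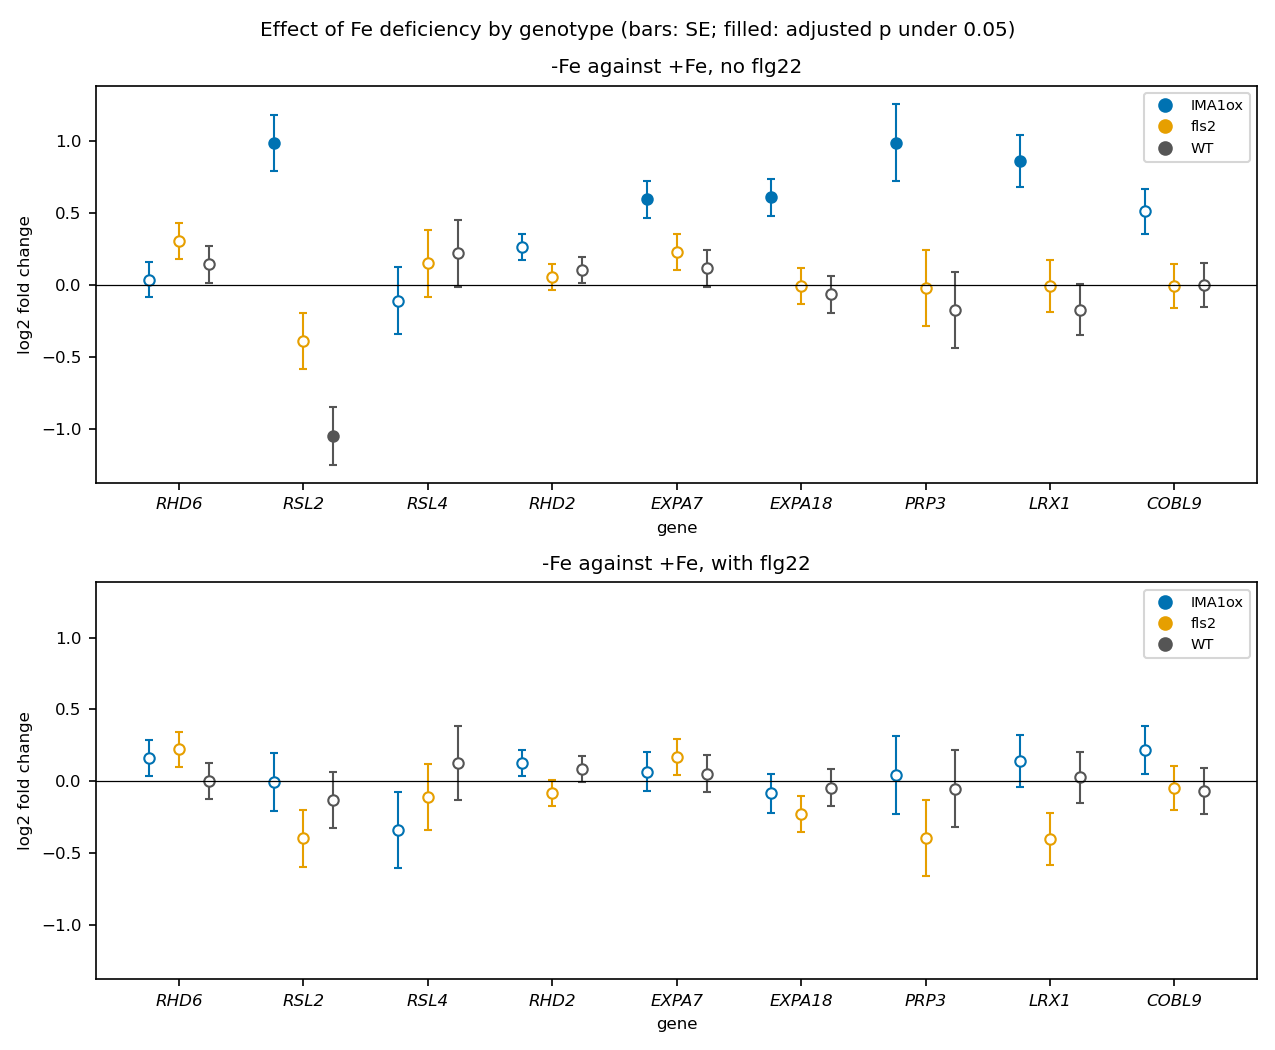
The log2 fold change of Fe-deficient over Fe-sufficient roots for each of the 9 genes, with SE, in IMA1ox, fls2 and WT, without flg22 (upper panel) and with flg22 (lower panel). RSL2 stood at 0.99 in IMA1ox and at -1.05 in WT without flg22, and no point in the lower panel is filled.

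RHD6, the earliest of the 3 regulators, varied less over the groups than the other two, with a highest group mean 1.45 times its lowest, against 2.06 for RSL2 and 2.97 for RSL4. In Fe-sufficient IMA1ox it had 10.6, 11.3 and 10.6 CPM with flg22 and 15.8, 14.4 and 14.6 CPM without it (-0.46 ± 0.13, adjusted p = 0.00444). In Fe-sufficient WT it had 18.2, 14.6 and 13.1 CPM with flg22 and 14, 11 and 11.9 CPM without it. The groups were apart in IMA1ox and overlapped in WT, where the log2 fold change of 0.32 ± 0.13 (adjusted p = 0.0449) was lost in 4 of 6 fits that left out 1 library.

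Those libraries for RHD6 were WT +Fe replicates 2 and 3 and WT +Fe flg22 replicates 1 and 2, with adjusted p from 0.0724 to 0.368, and the call was lost also in the compared groups alone (0.0929), with no filter on low counts (0.0504) and with library totals in place of TMM factors (0.0655). The flg22 effect on RHD6 in Fe-sufficient IMA1ox minus that in WT was -0.77 ± 0.18 (adjusted p = 0.0291), and 1 of the 9 genes was called lower there, against 0.467% of all genes. That call was lost in 8 of 12 fits that left out 1 library, with adjusted p from 0.051 to 0.131 and values from -0.80 to -0.63. The 8 libraries were WT +Fe replicates 2 and 3, WT +Fe flg22 replicate 1, IMA1ox +Fe replicates 1 and 3 and all 3 of IMA1ox +Fe flg22.

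In Fe-deficient IMA1ox, RHD6 had 10.9, 12.3 and 13.3 CPM with flg22 and 15.8, 13.3 and 16.6 CPM without it (-0.33 ± 0.12, adjusted p = 0.0304). The highest treated and the lowest untreated library both held 13.3 CPM. The call was lost without IMA1ox -Fe replicate 1 or 3 or IMA1ox -Fe flg22 replicate 1 or 2 (adjusted p from 0.0715 to 0.113). With Fe and flg22, RHD6 was lower in IMA1ox than in WT by 0.50 on the log2 scale (adjusted p = 0.00759), or by 0.36 without WT +Fe flg22 replicate 1 (adjusted p = 0.0921). Across fls2, RHD6 ranged from 10.6 to 17.8 CPM.

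RHD2, the oxidase of the hair tip, ranged from 48.8 to 76.2 CPM over all libraries. In Fe-deficient IMA1ox it had 53.0, 49.9 and 59.4 CPM with flg22 and 68.8, 72.2 and 66.2 CPM without it. The groups did not overlap, and RHD2 fell by 0.35 ± 0.09 on the log2 scale (adjusted p = 0.00229). In WT, flg22 moved it by 0.03 with Fe (95% interval -0.15 to 0.21) and by 0.01 without Fe (-0.16 to 0.19), neither past the threshold. In Fe-sufficient IMA1ox it moved by -0.22 ± 0.09 (adjusted p = 0.0564), and passed in 5 of 8 other settings, among them DESeq2 (0.0497) and the compared groups alone (0.00363).

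With flg22, RHD2 was lower in IMA1ox than in WT at both Fe levels. With Fe it had 48.9, 50.7 and 48.8 CPM in IMA1ox and 62.9, 59.8 and 75.9 CPM in WT (-0.42 ± 0.09, adjusted p = 0.00188). Without Fe, the 3 IMA1ox libraries above lay under 74.8, 63.7 and 72.4 CPM in WT (-0.38 ± 0.09, adjusted p = 0.00608). The flg22 effect in IMA1ox minus that in WT did not pass the threshold, at -0.36 without Fe (95% interval -0.61 to -0.12, adjusted p = 0.131) and at -0.25 with Fe (-0.50 to 0.01, adjusted p = 0.386).

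Of the 5 wall genes, EXPA7 was lower in IMA1ox than in WT in 3 of the 4 treatments. Fe-sufficient IMA1ox had 25.3, 23.9 and 27.9 CPM and Fe-sufficient WT had 41.9, 35.8 and 36.3 CPM (-0.56 ± 0.13, adjusted p = 0.00296). With Fe and flg22, IMA1ox had 17.8, 18 and 18 CPM and WT had 38.7, 33 and 41.4 CPM (-1.07 ± 0.13, adjusted p = 2.73e-06). Neither pair overlapped.

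Under Fe deficiency without flg22, EXPA7 had 38.3, 41.6 and 36.6 CPM in IMA1ox and 36.8, 33.9 and 52.8 CPM in WT, and the groups overlapped (-0.08, 95% interval -0.33 to 0.16). With flg22 added, Fe-deficient IMA1ox had 22.8, 17.2 and 16.5 CPM and Fe-deficient WT had 42.5, 33.9 and 40.9 CPM (-1.05 ± 0.13, adjusted p = 3.65e-06). Every IMA1ox library lay below every WT library in that treatment.

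Within IMA1ox, EXPA7 rose with Fe deficiency (0.59 ± 0.13, adjusted p = 0.00556). flg22 lowered it without Fe (-1.04 ± 0.13, adjusted p = 5.56e-07) and with Fe (-0.52 ± 0.13, adjusted p = 0.00297). In WT, flg22 moved EXPA7 by -0.07 without Fe (95% interval -0.32 to 0.18) and by -0.01 with Fe (-0.26 to 0.24). The flg22 effect in Fe-deficient IMA1ox minus that in Fe-deficient WT was -0.97 ± 0.18 (adjusted p = 0.00219), and -0.50 ± 0.19 with Fe (adjusted p = 0.201, or 0.0484 in the compared groups alone). The Fe-deficient difference did not pass in a fit of the compared groups alone (-0.96, adjusted p = 0.106). The Fe effect in IMA1ox minus that in WT was 0.48 ± 0.18 (adjusted p = 0.157), or 0.71 (adjusted p = 0.00715) without WT -Fe replicate 3, the library at 52.8 CPM.

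EXPA18, the second expansin, had 27.1, 27.7 and 29.5 CPM in Fe-sufficient IMA1ox and 51.3, 41.4 and 38.6 CPM in Fe-sufficient WT (-0.64 ± 0.13, adjusted p = 0.000927). It had 42.2, 45.3 and 41.2 CPM in Fe-deficient IMA1ox, all above the Fe-sufficient libraries of that line (0.61 ± 0.13, adjusted p = 0.00431), and 41.9, 39.0 and 44.6 CPM in Fe-deficient WT. With Fe and flg22 the values were 23.8, 21.6 and 22 CPM in IMA1ox and 34.5, 31.2 and 46.9 CPM in WT (-0.74 ± 0.13, adjusted p = 0.000283). IMA1ox lay below WT in both treatments with Fe, and under Fe deficiency alone the groups overlapped.

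flg22 lowered EXPA18 in Fe-deficient IMA1ox to 27.8, 17.8 and 18.2 CPM (-1.01 ± 0.13, adjusted p = 8.17e-07). Fe-deficient WT had 36.7, 35.5 and 36.8 CPM with flg22, below each untreated library but not past the threshold (-0.20 ± 0.13, adjusted p = 0.228, or 0.0477 in the compared groups alone). There EXPA18 was lower in IMA1ox than in WT by 0.78 on the log2 scale (adjusted p = 0.000222), a call lost in the compared groups alone (adjusted p = 0.0559). In Fe-sufficient IMA1ox, flg22 moved EXPA18 by -0.32 ± 0.13 (adjusted p = 0.0512), and it passed in 7 of 8 other settings (adjusted p from 0.00128 to 0.0485). The flg22 effect in Fe-deficient IMA1ox minus that in WT was -0.81 ± 0.18 (adjusted p = 0.0114), or -0.80 (adjusted p = 0.0762) in a fit of the compared groups alone. The Fe effect in IMA1ox minus that in WT was 0.68 ± 0.18 (adjusted p = 0.0287). That call was lost in 6 of 12 fits that left out 1 library (adjusted p from 0.0504 to 0.107), namely WT +Fe replicate 1, WT -Fe replicates 1 and 2, IMA1ox +Fe replicates 1 and 2 and IMA1ox -Fe replicate 2.

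In flg22-treated, Fe-sufficient roots, EXPA18 was higher in fls2, at 51.0, 49.6 and 49.6 CPM, than in WT (0.42 ± 0.13, adjusted p = 0.00841). Without WT +Fe flg22 replicate 1 or 2 that call was lost (adjusted p from 0.0507 to 0.0734). With WT +Fe flg22 replicate 3, the library at 46.9 CPM, left out, flg22 lowered EXPA18 in Fe-sufficient WT (-0.43, adjusted p = 0.00808), against -0.22 ± 0.13 with it (adjusted p = 0.167), and the flg22 effect in fls2 minus that in WT passed (0.52, adjusted p = 0.024).

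PRP3 spanned the widest range of the 9 genes, with a highest group mean 3.45 times the lowest. Fe-sufficient WT had 91.3, 88.8 and 164 CPM with flg22 and 323, 223 and 212 CPM without it (-1.14 ± 0.27, adjusted p = 0.00175). Fe-deficient WT had 98.4, 105 and 128 CPM with flg22 and 234, 220 and 218 CPM without it (-1.02 ± 0.27, adjusted p = 0.00495). The groups did not overlap at either Fe level, and both calls held with each single library left out. With Fe the call was lost in the compared groups alone (-1.15, adjusted p = 0.054).

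In Fe-deficient IMA1ox, PRP3 had 142, 53.4 and 48.9 CPM with flg22 and 251, 264 and 243 CPM without it (-1.63 ± 0.27, adjusted p = 4.08e-05). The call was lost in the compared groups alone (-1.63, adjusted p = 0.064), and without IMA1ox -Fe flg22 replicate 1 the log2 fold change was -2.32 (adjusted p = 7.02e-09). In Fe-sufficient IMA1ox it had 86.3, 73.7 and 77.5 CPM with flg22 and 120, 119 and 143 CPM without it (-0.69 ± 0.27, adjusted p = 0.0432). The groups were apart in both, but the call with Fe was lost whichever of its 6 libraries was left out (adjusted p from 0.0579 to 0.127) and with no filter on low counts (0.05).

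The fls2 libraries held PRP3 at 276, 264 and 279 CPM with Fe and flg22, against 306, 241 and 224 CPM with Fe alone, and the groups overlapped. The flg22 effect in fls2 minus that in WT with Fe was 1.23 ± 0.38 (adjusted p = 0.0236), where 1 of the 9 genes and 9.86% of all genes were called higher. Without WT +Fe replicate 1, WT +Fe flg22 replicate 1 or 2, or fls2 +Fe replicate 3 that call was lost (adjusted p from 0.0538 to 0.079). Without Fe the difference was 0.73 ± 0.38 (adjusted p = 0.172, or 0.00249 in the compared groups alone), where 10.2% of all genes and 0 of the 9 were called higher by edgeR, and 11% of all genes were called lower. DESeq2 called 1 of the 9 there, RSL2, as lower (-0.73), and 3 had an unadjusted p under 0.05 by edgeR.

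By Fe supply, PRP3 in IMA1ox was higher under Fe deficiency than with Fe (0.99 ± 0.27, adjusted p = 0.0324). It had 251, 264 and 243 CPM without Fe and 120, 119 and 143 CPM with Fe, and the groups did not overlap. The call was lost whichever of its 6 libraries was left out (adjusted p from 0.0721 to 0.121), with values from 0.94 to 1.08. It held in 8 of 8 other settings. The Fe effect in IMA1ox minus that in WT was 1.16 ± 0.38 (adjusted p = 0.0896), or 1.17 (adjusted p = 0.0093) in the compared groups alone. With Fe, PRP3 was lower in IMA1ox than in WT (-0.99 ± 0.27, adjusted p = 0.0122), or by 0.78 on the log2 scale without WT +Fe replicate 1 (adjusted p = 0.0745). Under Fe deficiency with flg22 it stood at -0.44 ± 0.27 in IMA1ox against WT (adjusted p = 0.354), or at -1.12 (adjusted p = 0.000785) without IMA1ox -Fe flg22 replicate 1. The flg22 effect on PRP3 in Fe-deficient IMA1ox minus that in WT was -0.61 ± 0.38 (adjusted p = 0.486), or -1.29 (adjusted p = 0.00617) without that library.

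LRX1 had 67.2, 77.8 and 89.1 CPM in Fe-sufficient IMA1ox and 180, 129 and 126 CPM in Fe-sufficient WT (-0.90 ± 0.18, adjusted p = 0.00117). It rose to 152, 131 and 142 CPM in Fe-deficient IMA1ox (0.86 ± 0.18, adjusted p = 0.00506), while Fe-deficient WT had 136, 125 and 126 CPM. Fe-deficient IMA1ox and WT overlapped, and Fe-sufficient IMA1ox and WT did not. The Fe effect in IMA1ox minus that in WT was 1.03 ± 0.26 (adjusted p = 0.0182), or from 0.85 to 0.94 without WT +Fe replicate 1 or IMA1ox +Fe replicate 1 (adjusted p from 0.0559 to 0.0695).

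flg22 lowered LRX1 in Fe-deficient IMA1ox to 104, 56.4 and 58.7 CPM (-0.95 ± 0.18, adjusted p = 0.000162). In Fe-sufficient WT it had 98.2, 91.4 and 128 CPM with flg22, overlapping the untreated libraries (-0.46 ± 0.18, adjusted p = 0.0462). The call in WT was lost without WT +Fe replicate 1 or WT +Fe flg22 replicate 1 or 2 (adjusted p from 0.136 to 0.275), with no filter on low counts (0.0539) and in the compared groups alone (0.114). The flg22 effect in Fe-deficient IMA1ox minus that in WT was -0.70 ± 0.26 (adjusted p = 0.162), or -1.05 (adjusted p = 0.00481) without IMA1ox -Fe flg22 replicate 1.

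With flg22, LRX1 was also lower in IMA1ox than in WT with Fe (-0.67 ± 0.18, adjusted p = 0.0133) and without Fe (-0.56 ± 0.18, adjusted p = 0.0484), and higher in fls2 than in WT with Fe (0.52 ± 0.18, adjusted p = 0.0191). Each of these calls was lost in some of the fits that left out 1 library. The first was lost without WT +Fe flg22 replicate 3 or IMA1ox +Fe flg22 replicate 2 or 3 (adjusted p from 0.0564 to 0.0894), the second without any of 5 of its 6 libraries, each except IMA1ox -Fe flg22 replicate 1 (0.0643 to 0.234), with library totals alone (0.0526), with no filter (0.0563) and in the compared groups alone (0.358), and the fls2 call without WT +Fe flg22 replicate 1 or 2 (0.0744 to 0.0923).

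COBL9 fell with flg22 in IMA1ox and WT at both Fe levels. Fe-deficient IMA1ox had 25.1, 13.6 and 14.4 CPM with flg22 and 43.4, 34.8 and 35.8 CPM without it (-1.10 ± 0.16, adjusted p = 3.99e-06). Fe-sufficient IMA1ox had 16.3, 13.8 and 15.7 CPM with flg22 and 24.4, 26.9 and 28.8 CPM without it. The change with Fe was -0.81 ± 0.16 on the log2 scale (adjusted p = 0.000293), and neither pair overlapped.

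For COBL9 in WT, flg22-treated libraries had 23.3, 20.4 and 28.2 CPM with Fe, against 37.1, 31 and 30.7 CPM untreated (-0.46 ± 0.16, adjusted p = 0.0206). Without Fe they had 19.8, 24.7 and 24.0 CPM, against 31.9, 30.3 and 36.4 CPM untreated (-0.53 ± 0.16, adjusted p = 0.0105). The groups were apart at both Fe levels. The first call was lost without WT +Fe replicate 1 or WT +Fe flg22 replicate 1 or 2 (adjusted p from 0.0636 to 0.112) and the second without WT -Fe flg22 replicate 1 (0.0587).

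In fls2, COBL9 ranged from 27.7 to 37.4 CPM over 12 libraries, and with flg22 it was higher than in WT by 0.47 ± 0.16 with Fe (adjusted p = 0.014) and by 0.49 ± 0.16 without Fe (adjusted p = 0.0105). Without WT +Fe flg22 replicate 2 the first had an adjusted p of 0.0857, and without WT -Fe flg22 replicate 1 the second had 0.0617. With Fe and flg22, COBL9 was lower in IMA1ox than in WT (-0.65 ± 0.16, adjusted p = 0.00732), a call lost without WT +Fe flg22 replicate 3 or IMA1ox +Fe flg22 replicate 2 (adjusted p from 0.0517 to 0.058). Its rise with Fe deficiency in IMA1ox had an adjusted p of 0.0563 by edgeR (0.51 ± 0.15), and passed with DESeq2 (0.0212), with the replicate number as a block (0.0427) and in the compared groups alone (0.0053).

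Under Fe deficiency with flg22, COBL9 in IMA1ox against WT stood at -0.37 ± 0.16 (adjusted p = 0.158), or at -0.71 (adjusted p = 0.000736) without IMA1ox -Fe flg22 replicate 1. The flg22 effect on COBL9 in Fe-deficient IMA1ox minus that in WT was -0.58 ± 0.22 (adjusted p = 0.184), or -0.92 (adjusted p = 0.00221) without that library. RSL4 in the same comparison of IMA1ox with WT stood at -0.57 ± 0.26 (adjusted p = 0.181), or at -0.91 (adjusted p = 0.0363) without it.

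Without IMA1ox -Fe flg22 replicate 1, the flg22 effect in Fe-deficient IMA1ox was -0.27 for RHD6 (adjusted p = 0.108) and stayed called for the other 8 genes. It was -0.84 for RSL2, -1.72 for RSL4, -0.35 for RHD2, -1.22 for EXPA7, -1.27 for EXPA18, -2.32 for PRP3, -1.31 for LRX1 and -1.45 for COBL9 (adjusted p from 1.32e-09 to 0.00663). IMA1ox against WT in the same treatment was then -0.37 for RHD2, -1.22 for EXPA7, -1.02 for EXPA18 and -0.91 for LRX1, each called. The flg22 effect in IMA1ox minus that in WT was -1.42 for RSL2, -1.13 for EXPA7 and -1.06 for EXPA18, each called. Except for RHD6, RSL2 and RHD2, these values lay further from 0 than with the library.

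**Figure D3:**
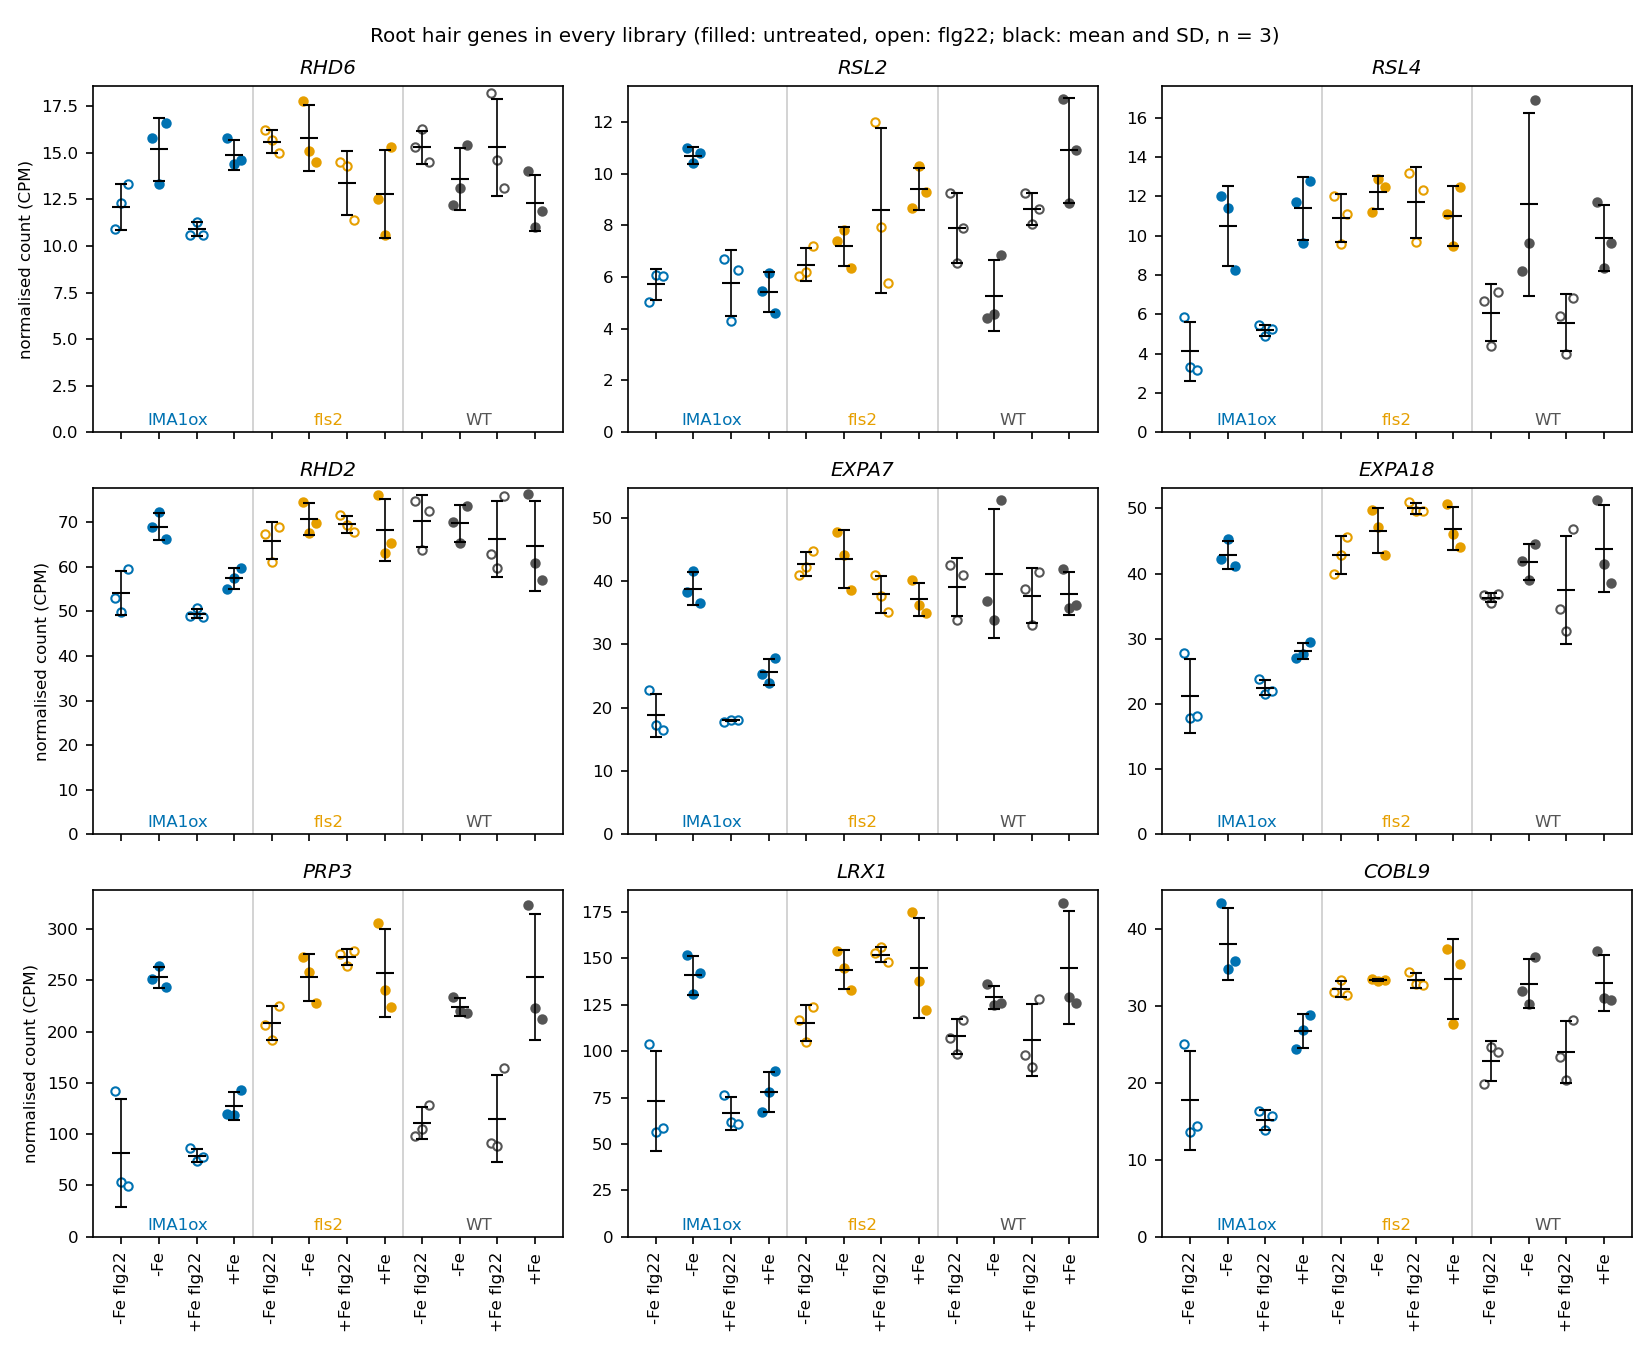
Normalised counts (CPM) of the 9 genes in every library, by genotype and treatment, with filled points for untreated and open points for flg22-treated libraries and with the mean and SD of each group (n = 3) in black. In IMA1ox the expansins, PRP3 and LRX1 are high under Fe deficiency alone, and 1 flg22-treated, Fe-deficient library stands above its group for PRP3 at 142 CPM.

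With flg22, fls2 was higher than WT in 5 of the 9 with Fe (23.6% of all genes higher), RSL4, EXPA18, PRP3, LRX1 and COBL9, and in 3 without Fe (23.2%), RSL4, PRP3 and COBL9. Without flg22, edgeR called 0 of the 9 between fls2 and WT with Fe (0% higher and 0.0197% lower of all genes) and 0 without Fe (0.00491% and 0.0983%), and 0 and 1 of the 9 had an unadjusted p under 0.05. DESeq2 called 0 in both.

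Whether Fe supply changed the flg22 effect was tested within each genotype, and edgeR called 0 of the 9 genes in each. In IMA1ox (0.138% of all genes higher and 0.0393% lower) 5 of the 9 had an unadjusted p under 0.05, in fls2 (0% and 0%) 0 did, and in WT (0.113% and 0.133%) 1 did. DESeq2 called 1 in IMA1ox, EXPA18, and 0 in fls2 and WT. Without IMA1ox -Fe flg22 replicate 1, edgeR called 4 lower in IMA1ox, which were EXPA7 (-0.70), EXPA18 (-0.94), PRP3 (-1.63) and LRX1 (-1.07), with adjusted p from 0.000844 to 0.0485.

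**Figure D4:**
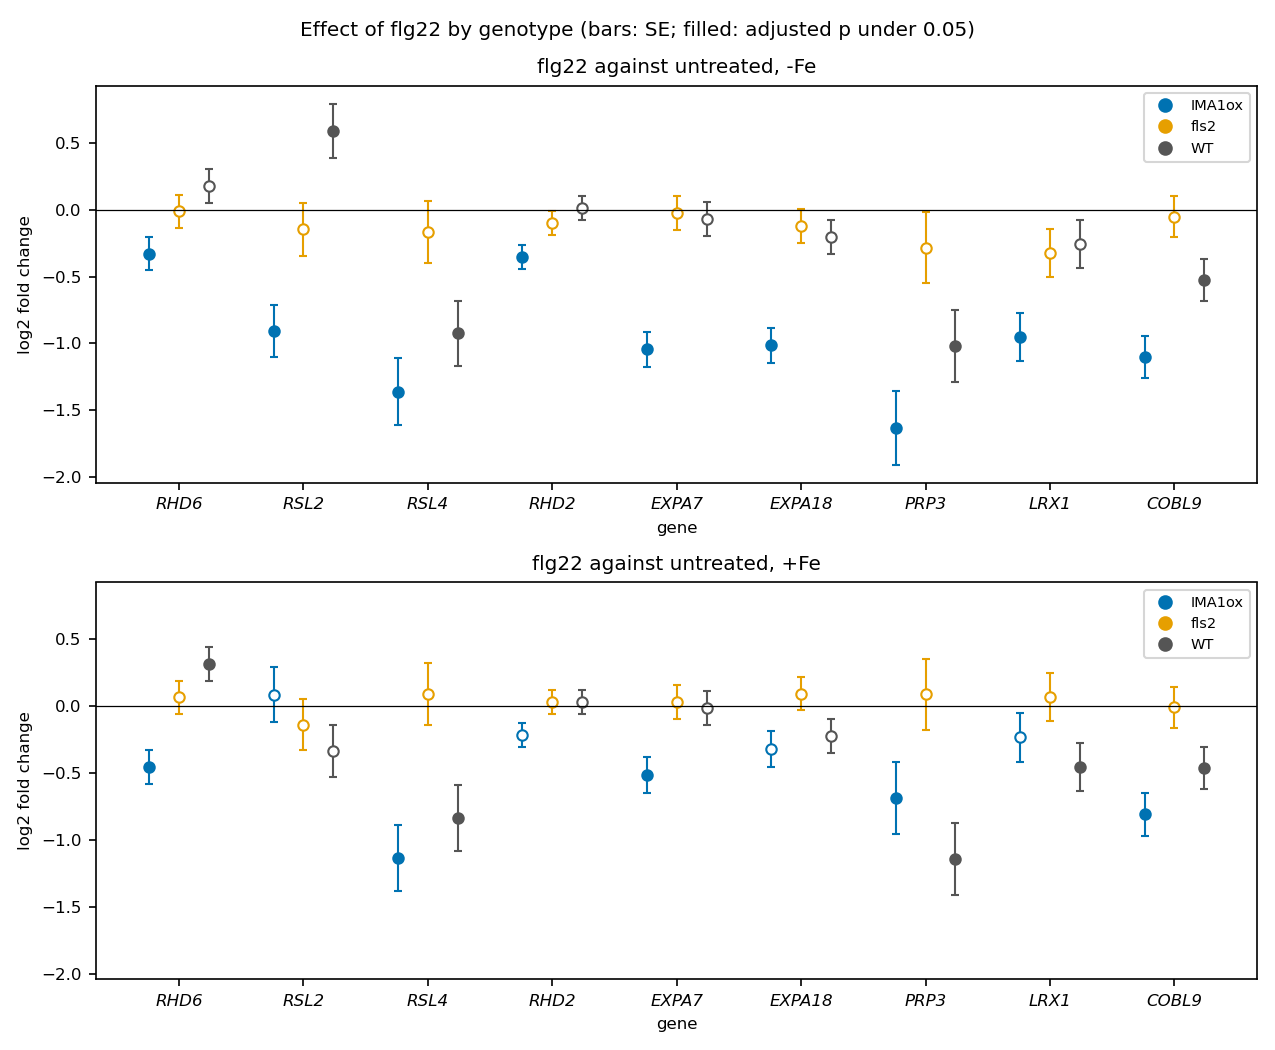
The log2 fold change of flg22-treated over untreated roots for the 9 genes, with SE, in IMA1ox, fls2 and WT, without Fe (upper panel) and with Fe (lower panel). Filled points had an adjusted p under 0.05, and the IMA1ox points without Fe are filled for all 9 genes, from -0.33 for RHD6 to -1.63 for PRP3.

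Over the 12 group means of log2 CPM, the wall genes varied together more than with RHD6 or RSL2. As a description, Pearson's r was 0.972 for EXPA18 with LRX1 and 0.958 for PRP3 with COBL9. It was 0.957 for EXPA7 with RHD2 and 0.898 for RSL4 with PRP3. RSL2 had 0.133 to 0.662 with the other 8, and RHD6 had 0.133 to 0.665. These points share libraries and depth. Among 2179 genes that varied by at least 1 log2 unit over the groups, the gene most like each member was AT5G04970 for RHD6 (0.849), RHS15 (AT4G25220, also G3Pp2) for RSL2 (0.818), TET12 for RSL4 (0.979), GH9C1 for RHD2 (0.961) and GSTU28 for EXPA7 (0.977). It was RHS19 for EXPA18 (0.986), AT5G19800 for PRP3 (0.993), EXT10 for LRX1 (0.996) and AT5G61550 for COBL9 (0.986). By Spearman's rho over the same means EXT10 also came first for LRX1, AT5G04970, RHS15 and GH9C1 came at rank 2, and the rest lower, with TET12 at rank 90, GSTU28 at 24 and AT5G61550 at 22. By Pearson's r over 36 libraries these 3 ranked 14, 18 and 44, so their place depends on the measure. EXT10 belongs to a family of near-identical extensins, so its counts are uncertain.

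Another 72 genes of root hair development were listed, of which 69 were tested. In Fe-deficient IMA1ox, flg22 lowered 47 and raised 5 of the 69, where 21.5% of all genes were lower and 24% higher. Without the library that stood apart it lowered 50 and raised 6. In Fe-sufficient IMA1ox it lowered 37 and raised 7 (20.4% of all genes lower and 23% higher). In WT it lowered 31 and raised 6 without Fe (16.8% lower and 18.2% higher), and lowered 38 and raised 5 with Fe (19.4% and 20.8%). In the compared groups alone, the last count was 25 lower and 5 higher of 68. The median log2 fold change of the 69 was -0.70, -0.34, -0.31 and -0.33 in these 4 comparisons, against medians of all genes from 0.00 to 0.01. In fls2 the median was -0.07 without Fe and 0.04 with Fe.

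A list held 26 tested genes of the hair wall and hair cell. flg22 in Fe-deficient IMA1ox lowered 22 of the 26 and raised 2, with a median log2 fold change of -1.28, and in Fe-deficient WT it lowered 12 and raised 2, with a median of -0.50. The shares over all genes were those just given for these comparisons. Without the library that stood apart the IMA1ox count was 23 lower and 2 higher, with a median of -1.69. In Fe-sufficient WT, 17 of the 26 were lower and 2 higher, or 7 and 2 in the compared groups alone. PRP1, a second proline-rich wall protein, fell to 44.7, 10.8 and 12.5 CPM with flg22 in Fe-deficient IMA1ox, against 115 ± 9.86 CPM (SD, n = 3) untreated (-2.34 ± 0.35, adjusted p = 1.09e-05, or -3.32 without the library at 44.7 CPM). In Fe-deficient WT it had 26 ± 6.08 CPM with flg22 and 83.8 ± 1.19 CPM untreated (-1.69 ± 0.35, adjusted p = 0.000573). The exceptions that rose were extensins, EXT3 at 13996 ± 1525 CPM with flg22 and 10094 ± 1091 CPM untreated in Fe-deficient IMA1ox, and AT1G26250 at 1087 ± 395 and 236 ± 19 CPM. Extensin genes are repetitive and alike, so their counts are uncertain.

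Fe deficiency in IMA1ox raised 13 of these 26 wall and hair-cell genes and lowered 1, with a median of 0.67. There, 1.9% of all genes were higher and 2.39% lower. In WT it raised none and lowered 1, with a median of -0.13, where 3.12% of all genes were higher and 2.85% lower. RHS15, named for its hair-specific expression, had 15.8 ± 2.53 CPM in Fe-deficient IMA1ox and 3.58 ± 0.578 CPM in Fe-sufficient IMA1ox (2.14 ± 0.33, adjusted p = 0.000212). In WT it had 4.86 ± 0.834 CPM under Fe deficiency and 11.3 ± 3.12 CPM with Fe (-1.22 ± 0.32, adjusted p = 0.0219), and the Fe effect in IMA1ox minus that in WT was 3.4 ± 0.46 (adjusted p = 7.3e-05). XTH26, a xyloglucan-modifying enzyme, had 49.2 ± 8.18 CPM in Fe-deficient IMA1ox and 16.5 ± 1.83 CPM in Fe-sufficient IMA1ox (1.58 ± 0.34, adjusted p = 0.00668). The Fe effect on XTH26 in IMA1ox minus that in WT was 1.94 ± 0.48 (adjusted p = 0.0184), and 9 of the 26 were called higher in that comparison, against 1.71% of all genes. In the compared groups alone 14 of the 26 were.

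With Fe and no flg22, IMA1ox was lower than WT in 14 of the 26 wall and hair-cell genes and higher in none. The median was -0.62, where 9.63% of all genes were lower and 7.09% higher. This comparison shares the Fe-sufficient IMA1ox libraries with the Fe effect in IMA1ox. In the same comparison 2 of 4 endodermis markers were lower, with summed levels of 173 to 185 CPM in IMA1ox and 208 to 212 CPM in WT. Stele markers, 1 of 4 lower, summed to 542 to 593 CPM in IMA1ox and 647 to 702 CPM in WT. Green shoot markers, 1 of 4 lower, summed to 69.2 to 89.6 CPM in IMA1ox and 115 to 155 CPM in WT, and the part of these markers was not tested. Among 20 genes of signalling and tip growth, 5 were lower and 1 higher there. RALF1, a secreted peptide that signals through FERONIA, had 70.3 ± 9.43 CPM in Fe-sufficient IMA1ox and 120 ± 3.61 CPM in Fe-sufficient WT (-0.77 ± 0.07, adjusted p = 3.97e-08), and it was higher under Fe deficiency in IMA1ox, at 96.8 ± 3.61 CPM (0.46 ± 0.07, adjusted p = 0.000187). COW1, a phosphatidylinositol transfer protein of the hair tip, had 33.4 ± 1.38 CPM in IMA1ox and 52.7 ± 11 CPM in WT with Fe (-0.66 ± 0.20, adjusted p = 0.0278).

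Among 10 other transcription factors of hair growth, flg22 raised 2 and lowered 2 in Fe-sufficient WT, close to the shares over all genes (20.8% higher and 19.4% lower). It raised LRL1, a bHLH factor, to 93.7 ± 11.2 CPM, against 58.9 ± 4.79 CPM untreated (0.67 ± 0.10, adjusted p = 5.67e-06), and OBP4, a repressor of hair growth, to 37.6 ± 6.65 CPM, against 24.0 ± 2.51 CPM (0.64 ± 0.12, adjusted p = 0.000174). RSL1, a close relative of RHD6, fell to 0.527 ± 0.168 CPM, against 1.99 ± 0.413 CPM (-1.91 ± 0.33, adjusted p = 3.81e-05). In Fe-deficient IMA1ox, flg22 raised 2 and lowered 4 of the 10 (24% of all genes higher and 21.5% lower). LRL3 there had 11.8 ± 2.49 CPM with flg22 and 25.5 ± 1.22 CPM untreated (-1.11 ± 0.18, adjusted p = 2.85e-05).

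The 13 genes of hair cell fate include those that set the neighbouring non-hair cells. flg22 lowered 5 of 13 and raised none in Fe-sufficient WT (19.4% of all genes lower and 20.8% higher), among them GL2, which represses hair formation in non-hair cells, at 6.72 ± 0.796 CPM with flg22 and 14.9 ± 1.14 CPM untreated (-1.15 ± 0.13, adjusted p = 8.15e-08). WER, which acts before GL2, had 8.0 ± 1.83 and 14.6 ± 2.18 CPM (-0.88 ± 0.18, adjusted p = 0.000305). CPC, which promotes the hair fate, was higher under Fe deficiency in WT, at 14.5 ± 1.55 CPM against 8.93 ± 0.630 CPM with Fe (0.70 ± 0.14, adjusted p = 0.00162). The Fe effect on CPC in IMA1ox minus that in WT was -0.88 ± 0.20 (adjusted p = 0.00709).

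**Figure D5:**
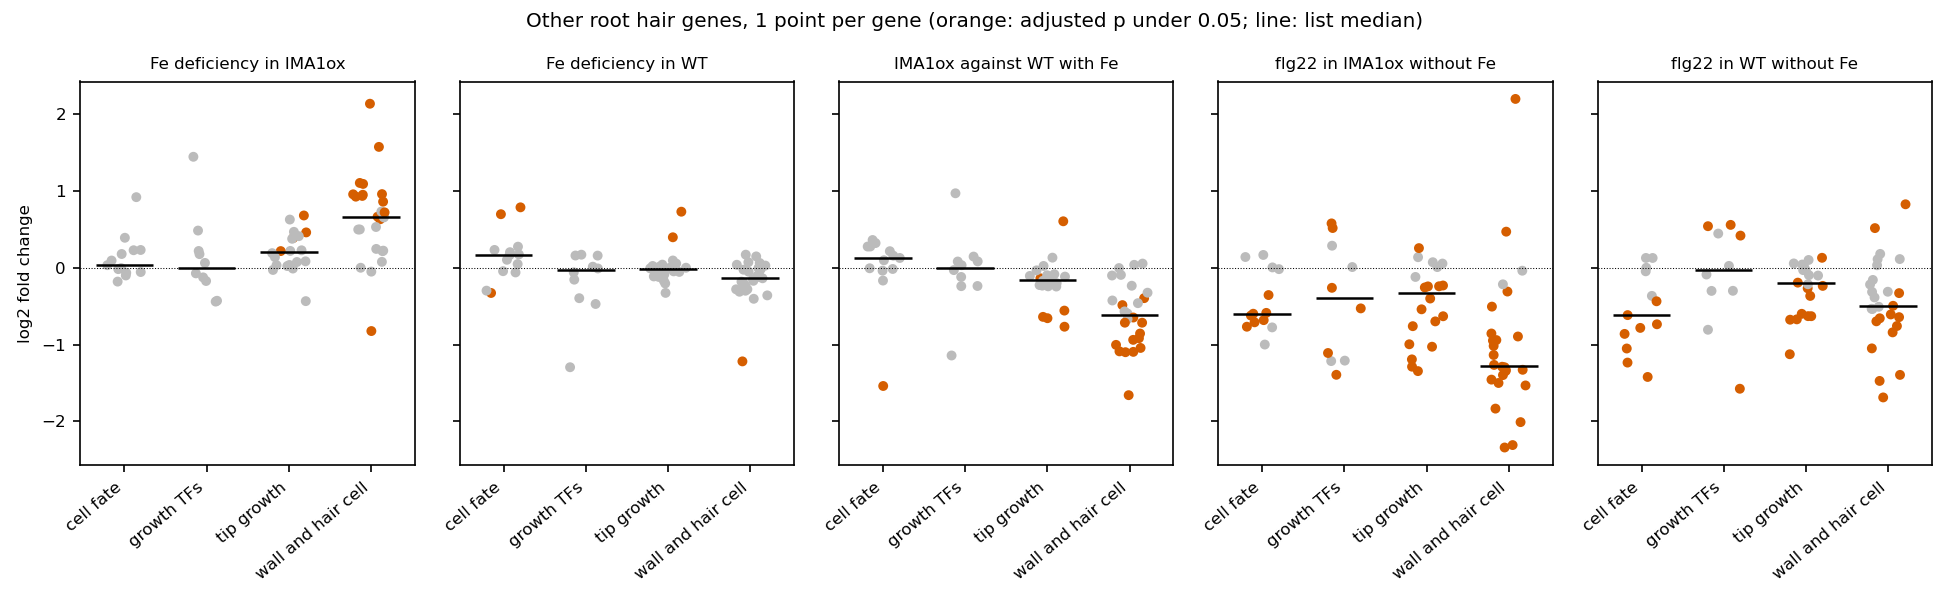
The log2 fold change of the other tested root hair genes in 5 comparisons, 1 point per gene, grouped in 4 lists, with the list median as a line and genes with an adjusted p under 0.05 in orange. The wall and hair-cell list has a median of 0.67 for Fe deficiency in IMA1ox, -0.13 in WT, and -1.28 for flg22 in Fe-deficient IMA1ox.

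Markers of other cell types moved with flg22 as well, and their part in the results was not tested. In Fe-sufficient WT, where 19.4% of all genes were called lower and 20.8% higher, 2 of 2 cortex markers were lower. Their summed level was 3.24 to 7.69 CPM with flg22 and 19.2 to 27.2 CPM untreated. The 3 markers of non-hair epidermis, of which 2 were lower, summed to 15.1 to 20.1 CPM with flg22 and 30.1 to 33.9 CPM untreated, and 3 of 3 markers of dividing cells were lower, at 73.0 to 84.8 CPM against 103 to 114 CPM. Of 4 endodermis markers 2 were lower, at 140 to 162 CPM against 208 to 212 CPM, while 3 of 4 green shoot markers were higher, at 186 to 271 CPM against 115 to 155 CPM. Stele markers summed to 818 to 992 CPM with flg22 and 647 to 702 CPM untreated, with 1 of 4 higher. Root cap markers summed to 23 to 26.5 CPM and 16.7 to 23.2 CPM, with 1 of 3 higher. Both counts, 1 gene each, were near the share of all genes called higher. No marker in these lists was at 0 in any group.

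In Fe-deficient IMA1ox, non-hair epidermis markers summed to 19.3 to 31.8 CPM with flg22 and 37.9 to 39.0 CPM untreated. Cortex markers summed to 9.06 to 21 CPM with flg22 and 23.4 to 30.9 CPM untreated. The flg22-treated group includes the library that stood apart. Its medians were 21.2 CPM for non-hair epidermis and 10.3 CPM for cortex, against 38 and 27 CPM untreated. For Fe deficiency in IMA1ox the same non-hair markers summed to 37.9 to 39.0 CPM without Fe and 34.6 to 37.6 CPM with Fe, and cortex markers to 23.4 to 30.9 CPM without Fe and 19.4 to 23.5 CPM with Fe. Of 4 endodermis markers 1 was higher there, where 1.9% of all genes were higher and 2.39% lower. Their summed levels were 210 to 229 CPM without Fe and 173 to 185 CPM with Fe.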

How the data were processed

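Root RNA of 36 libraries was sequenced, and the authors deposited raw counts per gene locus and a normalised signal table in CPM. The deposited signal was used for one alternative only. STAR 2.7.0a, edgeR 3.36.0 and the build TAIR10 are named per the submitters' processing notes, and the counter and its strand setting are not given in the sources used here. Groups come from the labels. Pools of roots are the replicates. The edgeR p-values set a difference against the spread between pools, estimated over all 36 libraries.

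The count fit used edgeR 4.0.16 (R 4.3.3) on all 36 libraries with a mean for each of 12 groups, TMM factors, the robust quasi-likelihood F-test and the filterByExpr filter (minimum count 10), which kept 20354 of 24532 loci. A gene was called at a Benjamini-Hochberg adjusted p under 0.05 over those 20354. There were 29 comparisons, 20 between groups and 9 differences of differences, many of them sharing groups. The standard error is the size of the log2 fold change over the square root of F, and CPM in the text uses TMM-scaled totals. Intervals cover 95%. Library totals were at least 28130566 counts.

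The 9 genes and the lists were chosen with earlier results of these data known. Beyond the 9, called genes with at least 1 CPM in a compared group could be named, the 4 largest changes each way per list within WT and the 2 largest elsewhere, and examples were picked among them. For likeness, genes needed at least 5 CPM in 1 group. Each value was recomputed with no filter, with RLE size factors, with library totals in place of TMM, with a filter of 5 CPM in 3 libraries, with the replicate number as a block, by limma-trend (limma 3.58.1) on log2 of the deposited CPM plus 1, by DESeq2 1.42.0, with the compared groups alone and with each library left out in turn. Leaving out both libraries that stood apart was added after seeing the data. The fit was tested on simulated data. Sequences came from TAIR10.1 by locus and gene symbols from its annotation. Of the 72 listed genes 71 were in the table, and LRX2 was not analysed here.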

Additional observations from a re-analysis of the deposited data

Results flagged for a closer look

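In 8 cases the effect of a treatment differed between 2 genotypes by edgeR's quasi-likelihood test of the difference, with Benjamini-Hochberg adjustment. These cases share groups of libraries and are not separate pieces of evidence. The untreated Fe-deficient libraries of IMA1ox and WT enter both the Fe effects and the flg22 effects in Fe-deficient roots. For the effect of Fe deficiency, IMA1ox minus WT was 2.04 for RSL2 (adjusted p = 4.76e-05), 0.68 for EXPA18 (adjusted p = 0.0287) and 1.03 for LRX1 (adjusted p = 0.0182). Of 12 fits that left out 1 library, the EXPA18 call was lost in 6 and the LRX1 call in 2. The RSL2 call held in each. RSL2 was higher in 3 of 3 Fe-deficient IMA1ox libraries, and lower in 3 of 3 Fe-deficient WT libraries, than every Fe-sufficient library of the same genotype.

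For the effect of flg22 in Fe-deficient roots, IMA1ox minus WT was -1.49 for RSL2 (adjusted p = 0.00199), -0.97 for EXPA7 (adjusted p = 0.00219) and -0.81 for EXPA18 (adjusted p = 0.0114). The EXPA7 and EXPA18 calls were lost in a fit of the compared groups alone (adjusted p = 0.106 and 0.0762). In Fe-sufficient roots, IMA1ox minus WT was -0.77 for RHD6 (adjusted p = 0.0291), and fls2 minus WT was 1.23 for PRP3 (adjusted p = 0.0236). With 1 library left out, the RHD6 call was lost in 8 of 12 fits and the PRP3 call in 4 of 12. In the comparison for PRP3, 9.86% of all genes were called higher.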

How the results depend on the processing

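Over 261 values of a gene in a comparison, no direction of a called value reversed under any alternative. The number of the 9 genes called moved by more than 1.5 times in these cases, and the cause was not tested. For flg22 in WT with Fe it was 3 with no filter on low counts and 2 in the compared groups alone, against 5. For Fe deficiency in fls2 with flg22 it was 3 in the compared groups alone, against 0. For IMA1ox against WT without Fe and with flg22 it was 2 in the compared groups alone and 7 without both libraries that stood apart, against 4. For the flg22 effect without Fe minus with Fe in IMA1ox it was 1 with DESeq2 and 5 without both libraries, against 0. For the flg22 effect in fls2 minus WT with Fe it was 2 at 5 CPM in 3 libraries, with DESeq2, in the compared groups alone and with the replicate number as a block, against 1. Without Fe it was 1 with DESeq2, 3 in the compared groups alone and 2 without both libraries, against 0. For the flg22 effect in IMA1ox minus WT it was 2 with Fe in the compared groups alone, against 1, and without Fe 1 in the compared groups alone and 7 without both libraries, against 3. For the Fe effect in IMA1ox minus WT it was 6 without both libraries, against 3.

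With each library left out in turn, the count ran from 1 to 6 for flg22 in WT with Fe, from 2 to 4 for flg22 in WT without Fe, from 2 to 5 for fls2 against WT with Fe and flg22, from 4 to 7 for IMA1ox against WT with Fe and flg22 and from 3 to 7 without Fe and with flg22. It ran from 0 to 4 for the flg22 effect without Fe minus with Fe in IMA1ox, from 0 to 3 for fls2 minus WT with Fe and from 0 to 1 without Fe, from 0 to 1 for IMA1ox minus WT with Fe and from 3 to 6 without Fe, and from 1 to 4 for the Fe effect in IMA1ox minus WT.

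The wall and hair-cell list also depended on the libraries that stood apart, with 17 genes called without them for the flg22 effect in Fe-deficient IMA1ox minus WT, against 3. The labels do not say what a replicate number marks, and the main fit used no pairing. Deviations of same-numbered libraries had a median r of 0.021 over 198 pairs (from -0.258 to 0.313, 30 of them over 0.1). For libraries of other groups and other numbers the median r was -0.00942, and 16 of 36 libraries were closest to their own number. A low median r does not exclude pairing among some of the groups. With the replicate block, 257 of 261 values kept their call, and the other 4, RHD2 and EXPA18 for flg22 in IMA1ox with Fe, COBL9 for Fe deficiency in IMA1ox and RSL4 for flg22 in fls2 minus WT with Fe, passed the threshold.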
